A study of Arabidopsis thaliana with 12 samples.

Results

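Transcripts of the coiled-coil (CC) nucleotide-binding leucine-rich repeat genes, the CNL class of intracellular immune receptors, were followed in leaves of Arabidopsis thaliana in 12 RNA-seq libraries, 2 in each of 6 groups. The members were 39 loci taken by their identifiers as CNL genes, with the receptors RPM1 and RPS2 left out. Of these, 38 had a row in the count table of 32678 genes, and 29 had enough counts to be tested among 19167 genes. AT4G14610, annotated as a transcribed pseudogene, was not analysed here. The groups cross camta3-D, which carries a dominant mutant allele (sr1-4d) of the transcription factor gene CAMTA3, and Col-0 wild type with 3 treatments given by syringe infiltration to plants 4 weeks old. Leaves were taken 1 h after flg22, a bacterial flagellin peptide, at 100 nM, or 4 h after Pseudomonas syringae pv. tomato (Pst) DC3000 carrying AvrRpm1 or AvrRps4, each at an OD600 of 0.001. Each sample pooled 6 leaf discs from 6 plants, and camta3-D is represented by this mutant allele alone. The comparisons ask what the altered CAMTA3 does to receptor transcripts early in immunity set off at the cell surface (flg22) or inside the cell (the effector strains).

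No mock-treated or untreated library was analysed here, so a genotype difference after a treatment cannot be told apart from one present without it. The flg22 and Pst libraries differ in both elicitor and time. By the study's account, separate experiments gave the libraries of a group for flg22 and for AvrRpm1. For AvrRps4 the sources used here do not say, and there a p-value may rest on technical spread. The libraries held 22769687 to 26303024 gene counts each. In 11 libraries 2.56 to 3.43% of counted reads aligned to more than 1 place, and in camta3-D AvrRpm1 replicate 2 the share was 7.78%. The camta3-D lesion changes the protein, so the CAMTA3 transcript is no check of the labels. Its log2 fold changes were 0.06, -0.34 and 0.07 after flg22, AvrRpm1 and AvrRps4, and none passed the test. The leaf photosynthesis markers RBCS1A, RCA, PSBO1 and LHCB2.1 summed to between 20056 and 38818 CPM over all libraries, and the flower markers AGAMOUS and AP3 to at most 1.35 CPM.

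CNL proteins have an N-terminal coiled-coil domain, a nucleotide-binding domain with a P-loop and C-terminal leucine-rich repeats. They sense a pathogen effector, or the mark it leaves on a host protein that they guard, and then assemble into complexes that trigger resistance and often local cell death. RPM1 senses what AvrRpm1 does to the host protein RIN4, and AvrRps4 is sensed by the receptor pair RRS1 and RPS4 of the Toll-interleukin 1 receptor (TIR) class, so none of the members described here is the known receptor of either effector. Plants hold the transcripts of many receptors in check with microRNAs, and miR472 is known to target several CNL genes at the stretch that encodes the P-loop. CAMTA proteins bind calmodulin and DNA with a CGCG core.

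The mature miR472 and its best match in members are shown because the match sorts the members into the sets referred to below. The sequences are from the RefSeq TAIR10.1 reference, written 5′ to 3′ in DNA letters. The microRNA lies on the minus strand at chr1:4182143-4182164, inside the gene model of the member AT1G12290, and its seed (bases 2 to 8) is in capitals. In the sites, capitals mark bases that pair with miR472 and lower case marks mismatches, and each site lies in a coding exon.
miR472 3p: tTTTTCCTactccgcccatacc
AT5G43740, chr5:17566541-17566562, plus strand: GGTATGGGgGGAGTAGGAAAAA
AT1G15890, chr1:5461946-5461967, plus strand: GGTATGGGgGGAGTAGGtAAAA
SUMM2, chr1:4176992-4177013, minus strand: GGcATGGGtGGAGTAGGcAAAA
AT1G61310, chr1:22615382-22615403, minus strand: GGTATGGGtGGtGTAGGcAAAA
ZAR1, chr3:18936691-18936712, plus strand: GGgATGGGaGGgcTAGGtAAAA
AT1G63350, chr1:23497076-23497097, minus strand: GGTATGGGaGGtGTtGGgAAgA
RPP7, chr1:21760731-21760752, plus strand: GGaATGGGtGGtcTcGGtAAAA

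Allowing no gaps, 20 of the 38 members (52.6%) had a site with 3 mismatches or fewer, against 1 of 27397 other coding genes (0.00365%). The best match was in AT5G43740, with 1 mismatch. Those with 2 included RFL1, AT1G12290, AT1G15890, AT4G10780, AT5G43730 and AT5G63020, and 12 members, SUMM2 among them, had 3. ZAR1, RPP8, RPP13, CW9 and AT1G63350 had 5, and RPP7 had 6. The members share descent, so their sites are not independent of each other.

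ZAR1, which assembles with pseudokinases and PBL kinases into a pentameric calcium channel at the membrane, stood far above the other members. Levels are compared between genes as CPM (gene counts scaled to a common library size, as edgeR gives them after TMM scaling) per kilobase of exon. ZAR1 averaged 247 CPM per kilobase over the 12 libraries, higher than 98.4% of 19044 genes tested with a known exon length. RPP7 followed with 37.3, RPP8 with 35.5, AT5G48620 with 32.0 and RPP13 with 20.4 CPM per kilobase. RPP7 and RPP8 changed places between groups, since RPP7 was the higher after flg22 and RPP8 after AvrRpm1 in both genotypes. The median of the 29 members tested was 4.38 CPM per kilobase, against 7.25 over all genes tested. SUMM2 (2.00) lay below that median, and the lowest member tested, AT3G14460, averaged 0.0923 CPM per kilobase. The map of levels by library shows that most of the variation lies between flg22 and the Pst strains in many of the members.

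**Figure D1:**
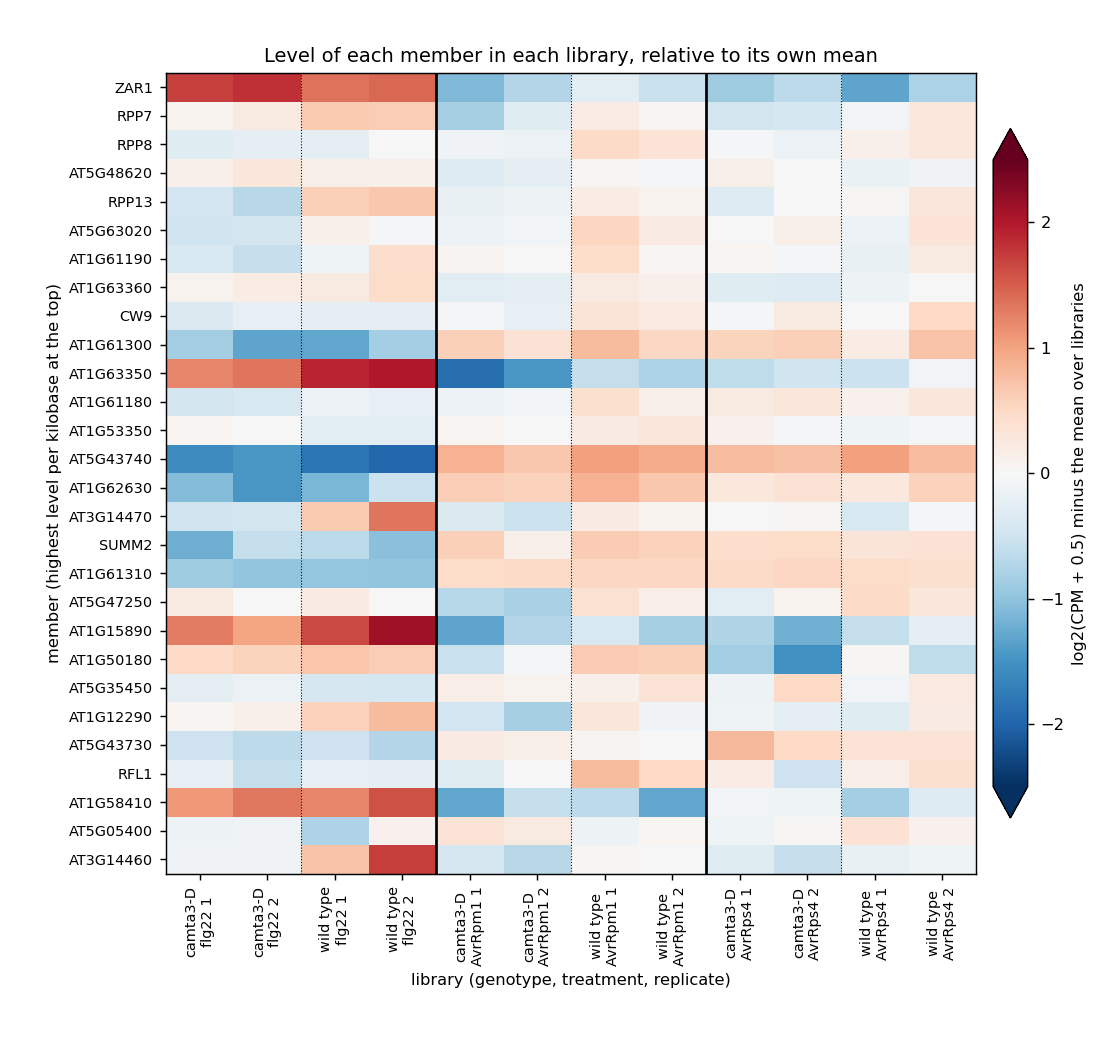
Level of 28 of the members tested (rows, highest level per kilobase at the top) in the 12 libraries (columns), as log2(CPM + 0.5) minus the member's mean over libraries. ZAR1, AT1G63350, AT1G15890 and AT1G58410 are red in the flg22 libraries and blue in the Pst libraries, and AT5G43740, AT1G61310 and SUMM2 the reverse. RPP13 and AT3G14470 are blue in camta3-D and red in wild type after flg22.

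Of the 9 members not tested, AT1G59780 and AT5G47260 had 0 counts in every library. Taken singly, each 0 allows up to 3 counts in its library, and the 12 libraries together set a tighter limit. AT3G46710 and AT4G27190 had 1 count in all 12 libraries together, AT1G58390 had 9 and AT4G27220 had 11. AT4G10780, AT3G46730 and AT1G58400 had 29, 37 and 49. These limits cover counting error only. AT5G47260 adjoins AT5G47250, which was measured in every library.

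After flg22, 5 of the 29 members tested fell in camta3-D leaves relative to wild type and 0 rose. Among them were RPP13, known from alleles that confer resistance to the downy mildew Hyaloperonospora arabidopsidis, and AT3G14470, AT1G63350 and AT3G14460, which have no established ligand. The calls are from the edgeR quasi-likelihood test at a Benjamini-Hochberg adjusted p under 0.05. In the same comparison 10.8% of all genes tested were called, 5.21% higher and 5.59% lower. The members' median log2 fold change was -0.21, against 0.04 over all genes tested. At an unadjusted p under 0.05, 2 members were higher and 10 lower, and DESeq2 called 0 higher and 7 lower. In either direction, 5409 of the 19167 genes tested passed that unadjusted threshold. In whole leaves, less RNA per cell and fewer cells that express a gene cannot be told apart.

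RPP13 had 44.8 and 38.3 CPM in camta3-D leaves after flg22, against 93.7 and 98.9 CPM in wild type. Both camta3-D libraries lay far below both wild-type libraries, a log2 fold change of -1.21 ± 0.14 (SE, adjusted p = 0.00261, edgeR). AT3G14470 had 5.48 and 5.64 CPM in camta3-D leaves, against 12.9 and 20.9 CPM in wild type. The wild-type libraries differed from each other more than the camta3-D ones did, and the groups did not overlap. The log2 fold change was -1.60 ± 0.23 (SE, adjusted p = 0.00585, edgeR). Both genes kept their call whichever of the 4 libraries was left out.

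AT1G63350 had 30.0 and 32.3 CPM in camta3-D leaves, against 48.4 and 51.9 CPM in wild type, so the camta3-D level was 62.1% of that in wild type. Its log2 fold change was -0.69 ± 0.18 (SE, adjusted p = 0.0368, edgeR). AT3G14460 had 5 and 5 counts in camta3-D libraries and 18 and 45 counts in wild-type libraries, with a log2 fold change of -2.49 ± 0.67 (SE, adjusted p = 0.0436, edgeR). These calls did not hold when libraries were left out, which leaves 1 library in a group. AT1G63350 lost its call whichever of the 4 libraries was left out, with log2 fold changes between -0.77 and -0.66. AT3G14460 lost its call without camta3-D replicate 1, camta3-D replicate 2 or replicate 2 of wild type. Its log2 fold changes ran between -3.06 and -1.67 over the 4 libraries left out. AT3G14460 was not called when only these 4 libraries were fitted.

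ZAR1, RPP7, RPP8 and SUMM2 did not pass the test after flg22. ZAR1 had 1685 and 1824 CPM in camta3-D leaves and 1316 and 1379 CPM in wild type, with both camta3-D libraries the higher (log2 fold change 0.38, adjusted p = 0.222, edgeR). RPP7, which confers resistance to Hyaloperonospora arabidopsidis, had 206 and 225 CPM in camta3-D leaves and 305 and 297 CPM in wild type, a log2 fold change of -0.48 (adjusted p = 0.1, edgeR). RPP8, whose alleles give resistance to the same oomycete or to a virus, had 112 and 117 CPM in camta3-D leaves and 117 and 138 CPM in wild type. SUMM2, which monitors the MEKK1, MKK1/MKK2 and MPK4 kinase cascade, had 1.91 and 3.21 CPM in camta3-D leaves and 2.995 and 2.22 CPM in wild type, and its groups overlapped. The summed CPM of guard cell markers (MYB60, FAMA, KAT1 and SLAC1, all 4 detected) was 18.9 to 21.9 in camta3-D leaves after flg22 and 33.5 to 38.4 in wild type. The photosynthesis sum was 36259 to 38818 in camta3-D and 30911 to 33629 in wild type, and the phloem sum (SUC2, APL and SEOR1, all 3 detected) 289 to 315 and 261 to 274. Whether these have a part in the members' differences was not tested.

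After AvrRpm1, 4 of the 29 members tested fell in camta3-D leaves and 0 rose: AT5G47250, AT1G63350, RPP8 and AT1G63360 (4.52% of all genes tested were called, 1.12% higher and 3.41% lower). The members' median log2 fold change was -0.41, against 0.01 over all genes tested, and 26 of the 29 fitted values were below 0. Both camta3-D libraries lay below both wild-type libraries in 21 of the 29 members tested (72.4%), and in 25.4% of all genes tested. At an unadjusted p under 0.05, 0 members were higher and 16 lower, and DESeq2 called 0 higher and 9 lower. Of the 19167 genes tested, 3843 passed that unadjusted threshold in either direction.

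AT5G47250, which has no established ligand, had 3.34 and 3.04 CPM in camta3-D leaves after AvrRpm1, against 7.60 and 6.51 CPM in wild type. The camta3-D libraries were below both wild-type libraries, with a log2 fold change of -1.14 ± 0.19 (SE, adjusted p = 0.0107, edgeR). AT1G63350, also lower after flg22, had 3.02 and 4.27 CPM in camta3-D leaves and 8.14 and 7.07 CPM in wild type (log2 fold change -1.07 ± 0.20, SE, adjusted p = 0.019, edgeR). Its neighbour AT1G63360 had 31.6 and 31.8 CPM in camta3-D leaves and 44.1 and 41.4 CPM in wild type, a smaller difference (log2 fold change -0.43 ± 0.10, SE, adjusted p = 0.0446, edgeR). RPP8 had 129.7 and 124.6 CPM in camta3-D leaves, against 193 and 176 CPM in wild type. That is 68.9% of the wild-type level, with a log2 fold change of -0.54 ± 0.12 (SE, adjusted p = 0.0315, edgeR).

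Several members without a call after AvrRpm1 had groups that did not overlap. RPP7 had 108 and 156 CPM in camta3-D leaves and 219 and 199.6 CPM in wild type, and its camta3-D libraries lay apart (log2 fold change -0.66, adjusted p = 0.0612, edgeR). ZAR1 had 237 and 308 CPM in camta3-D leaves and 418 and 349.6 CPM in wild type, the order opposite to that after flg22, also without a call (log2 fold change -0.49, adjusted p = 0.183, edgeR). RPP13 had 54.8 and 56.6 CPM in camta3-D leaves and 70.5 and 66.0 CPM in wild type. SUMM2 had 7.92 and 5.61 CPM in camta3-D leaves and 8.25 and 7.85 CPM in wild type, which overlapped.

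None of the 4 calls after AvrRpm1 held with every library left out. RPP8 and AT1G63360 lost their call whichever of the 4 libraries was left out. AT1G63350 lost its call without replicate 1 of either genotype. AT5G47250 lost its call without these and also without camta3-D replicate 2, the library with 7.78% of reads aligned to more than 1 place. RPP7 gained a call without camta3-D replicate 2, and its log2 fold changes ran between -0.95 and -0.42 over the 4 libraries left out. When only these 4 libraries were fitted, 0 members were called. After AvrRpm1 the summed CPM of phloem markers was 195 to 202 in camta3-D leaves and 236 to 268 in wild type, with log2 fold changes of -0.43 for SUC2, -0.06 for APL and -0.02 for SEOR1, none of them called. The guard cell sum was 31.1 to 41.8 in camta3-D and 47.6 to 48.2 in wild type, the epidermis sum (3 of 3 markers detected) 228 to 246 and 176 to 217, and the photosynthesis sum 26912 to 28178 and 21653 to 22558. Their part in the members' differences was not tested.

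After AvrRps4, 0 of the 29 members tested were called in either direction by edgeR (4.93% of all genes tested were called, 2.49% higher and 2.44% lower). At an unadjusted p under 0.05, 0 members were higher and 6 lower, and DESeq2 called 0 higher and 2 lower. That unadjusted threshold was passed by 4525 of the 19167 genes tested, in either direction. The members' median log2 fold change was -0.15, against 0.00 over all genes tested, and the median lay between -0.24 and 0.08 when the 4 libraries were dropped singly. The 6 members lower before adjustment were RPP7, AT1G50180, AT5G47250, RPP8, AT1G63360 and RPP13. RPP7 had 140.2 and 143 CPM in camta3-D leaves and 185 and 233 CPM in wild type, groups that did not overlap (log2 fold change -0.56 ± 0.17, SE, adjusted p = 0.0874, edgeR). RPP8 had 136 and 124 CPM in camta3-D leaves and 150.2 and 166 CPM in wild type. RPP13 had 49.3 and 61.8 CPM in camta3-D leaves and 63.2 and 75.9 CPM in wild type. ZAR1 (277 and 324 CPM in camta3-D, 206 and 295 CPM in wild type) and SUMM2 (7.14 and 7.24 CPM in camta3-D, 6.46 and 6.72 CPM in wild type) were not called, and their camta3-D means were the higher. The photosynthesis sum was 24559 to 27149 CPM in camta3-D and 20056 to 22436 CPM in wild type, the epidermis sum 205 to 218 and 176 to 195, the guard cell sum 35.7 to 39.9 and 42.3 to 52.6, and the phloem sum 168 to 204 and 225 to 287.

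**Figure D2:**
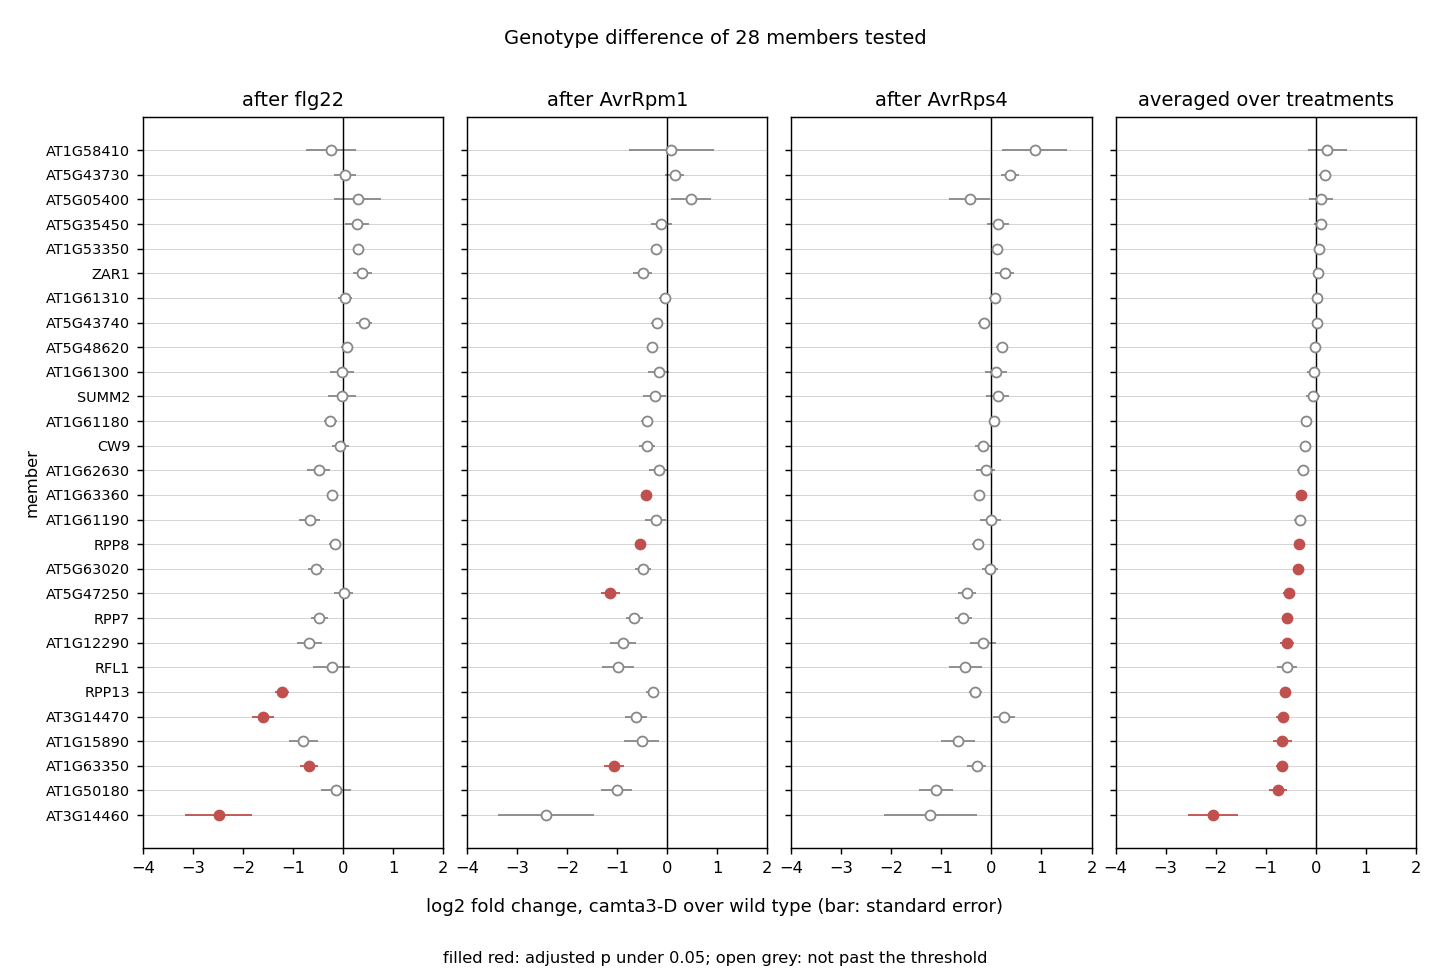
Log2 fold change of camta3-D over wild type (horizontal axis, bars are standard errors) for 28 of the members tested, after each treatment and averaged over treatments. Filled red points passed an adjusted p under 0.05: 4 after flg22, 4 after AvrRpm1, 0 after AvrRps4 and 12 in the average, each to the left of 0.

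Averaged over the 3 treatments, 13 of the 29 members tested were lower in camta3-D and 0 higher (20.8% of all genes tested were called, 10.3% higher and 10.5% lower). At an unadjusted p under 0.05, 0 members were higher and 16 lower, and DESeq2 called 0 higher and 13 lower. Among the 19167 genes tested, 6823 passed that unadjusted threshold in either direction. The members' median log2 fold change was -0.30, against 0.02 over all genes tested. Fitted values were below 0 in all 3 treatments for 15 members, above 0 in all 3 for AT5G43730 alone, and of mixed sign for 13. This average uses the same libraries as the treatments above and is not independent of them. In the same average the photosynthesis markers RBCS1A (0.30), RCA (0.33) and PSBO1 (0.35) rose in camta3-D on the log2 scale (adjusted p = 0.0219, 0.0136 and 0.00834, edgeR). LHCB2.1, on the same list, did not (-0.07, adjusted p = 0.527, edgeR). It had 0.19, -0.26 and -0.12 after flg22, AvrRpm1 and AvrRps4, without a call. The guard cell markers MYB60 (-0.41), FAMA (-0.50) and KAT1 (-0.66) fell (adjusted p = 0.00996, 0.00642 and 0.0227, edgeR). SLAC1 had -0.45 without a call (adjusted p = 0.102, edgeR). The part of these markers in the members' differences was not tested.

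Among receptors of known role, RPP13 (-0.61 ± 0.08, SE), RPP7 (-0.57 ± 0.10) and RPP8 (-0.32 ± 0.07) fell on the log2 scale in the average, at adjusted p = 0.00125, 0.00451 and 0.00914 (edgeR). AT1G50180, known as CAR1 and able to sense conserved Pst effectors, fell as well (-0.75 ± 0.18, SE, adjusted p = 0.0186, edgeR). AT1G50180 had 2.34 and 3.56 CPM in camta3-D leaves after AvrRpm1 and 6.06 and 5.84 CPM in wild type, and 1.79 and 0.971 CPM in camta3-D leaves after AvrRps4 and 3.79 and 2.19 CPM in wild type. After flg22 its values were closer, at 5.42 and 5.70 CPM in camta3-D leaves and 6.31 and 5.90 CPM in wild type.

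Members that also fell in the average included AT1G63350 (-0.68), AT1G15890 (-0.66), AT3G14470 (-0.66), AT1G12290 (-0.58), AT5G47250 (-0.54), AT5G63020 (-0.35), AT1G63360 (-0.30) and AT3G14460, whose ligands are not established. AT3G14460 had 3 and 0 counts in camta3-D AvrRpm1 libraries and 4 and 1 counts in camta3-D AvrRps4 libraries, against 9 and 9 and 6 and 7 counts in wild type, so no averaged fold is given for it. ZAR1 (0.05, adjusted p = 0.785, edgeR) and SUMM2 (-0.05, adjusted p = 0.837, edgeR) did not pass. Of the 13, 10 kept their call whichever of the 12 libraries was dropped. AT1G12290, AT1G15890 and AT5G63020 did not, and their adjusted p reached 0.0686, 0.0985 and 0.073 (edgeR).

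**Figure D3:**
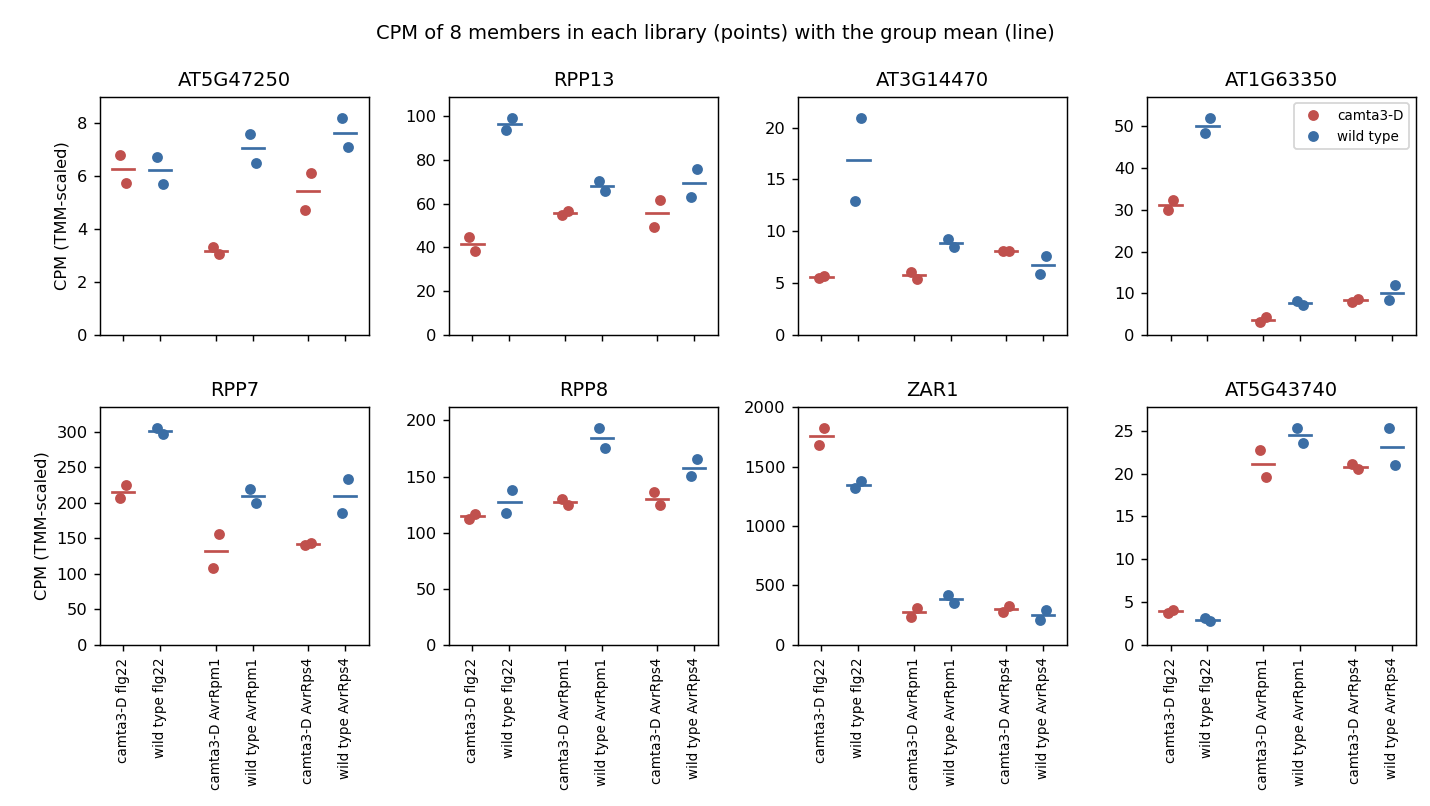
CPM (vertical axes, from 0) of 8 members in each library, camta3-D in red and wild type in blue, with the group mean as a line (n = 2). The wild-type points lie above the camta3-D points for RPP13, RPP7 and RPP8 after AvrRpm1 and AvrRps4, and ZAR1 and AT5G43740 differ mainly between flg22 and the Pst strains.

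Summed over the members other than ZAR1, the counts came to 775 and 809 CPM in camta3-D leaves after flg22, against 995 and 1068 CPM in wild type. After AvrRpm1 the sums were 721 and 760.4 CPM in camta3-D leaves and 1058 and 949 CPM in wild type. After AvrRps4 they were 812 and 802 CPM in camta3-D leaves and 839 and 991 CPM in wild type. Without ZAR1, no camta3-D sum reached a wild-type sum of its treatment. With ZAR1 included this did not hold. After flg22 both camta3-D sums were then the higher, at 2461 and 2633 CPM against 2311 and 2447 CPM. After AvrRpm1 they were 958 and 1069 CPM against 1476 and 1298 CPM in wild type. After AvrRps4 they overlapped, at 1088 and 1126 CPM against 1046 and 1285 CPM. ZAR1 alone made up 68.5 and 69.3% of the members' counts in camta3-D leaves after flg22 and 56.9 and 56.4% in wild type, and 19.7 to 28.9% in the Pst libraries.

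The genotype effect itself was compared between treatments. For the mean of the Pst strains against flg22, 0 of the 29 members tested were called by edgeR (0.308% of all genes tested). At an unadjusted p under 0.05 there were 6 members and 3103 of the 19167 genes tested, and DESeq2 called 2 members. The lowest adjusted p belonged to RPP13 (a difference of 0.91 ± 0.17 on the log2 scale, SE, adjusted p = 0.0611, edgeR) and AT3G14470 (1.41 ± 0.27, SE, adjusted p = 0.0646, edgeR), and in both the fitted camta3-D value was nearer to wild type after Pst. For AvrRpm1 against AvrRps4, 0 members were called by edgeR (0.0209% of all genes tested, 0.00522% higher and 0.0157% lower), and 1 by DESeq2. Of the members, 7 had an unadjusted p under 0.05, each more negative after AvrRpm1, as had 2981 of the 19167 genes tested in either direction. A member called after 1 treatment and not after another is therefore not shown to differ between them.

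Between the strains, AvrRpm1 against AvrRps4, 0 of the 29 members tested were called in wild type by edgeR (3.75% of all genes tested, 1.58% higher and 2.17% lower). DESeq2 called 2 higher. At an unadjusted p under 0.05, 4 members were higher and 1 lower, and 3814 of the 19167 genes tested passed in either direction. In camta3-D leaves 5 members were called, 1 higher and 4 lower after AvrRpm1 (22.9% of all genes tested were called, 10.5% higher and 12.4% lower). The same camta3-D AvrRpm1 libraries enter this comparison and the genotype comparison above. AT1G63350 had 3.02 and 4.27 CPM after AvrRpm1 and 7.87 and 8.74 CPM after AvrRps4 in camta3-D, with no overlap (log2 fold change -1.19 ± 0.20, SE, adjusted p = 0.00399, edgeR). AT5G47250 (-0.76 ± 0.19), AT1G61180 (-0.37 ± 0.12) and AT5G48620 (-0.35 ± 0.10) were also lower on the log2 scale (± SE), and AT1G50180 was higher (1.08 ± 0.34). The count was 2, 2, 3 and 1 without camta3-D AvrRpm1 replicates 1 and 2 and AvrRps4 replicates 1 and 2, and AT1G63350 was the only member kept under each. With only these 4 libraries fitted, 1 member was called.

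Leaves at 4 h after the Pst strains differed from leaves at 1 h after flg22 in most members tested, in both genotypes. In camta3-D 11 members rose and 10 fell (66.4% of all genes tested were called, 33.9% higher and 32.5% lower). In wild type 13 rose and 10 fell (71.1% of all genes tested, 36.8% higher and 34.3% lower). The members' median log2 fold change was 0.29 in camta3-D and 0.24 in wild type, against 0.03 and 0.05 over all genes tested. The share of members called was near that of all genes. Their values ran between -2.62 and 2.42 in camta3-D and between -3.30 and 3.01 in wild type. The TMM factors were 0.797 to 0.825 in the flg22 libraries and 1.04 to 1.17 in the Pst libraries. Small changes between these treatments therefore depend on the scaling. RPP7 in wild type, for one, had 6614 and 6140 unscaled counts after flg22 and 5181 to 6393 after Pst.

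AT5G43740 rose most. It had 22.8 and 19.6 CPM after AvrRpm1 and 21.2 and 20.5 CPM after AvrRps4 in camta3-D, against 3.77 and 4.09 CPM after flg22 (log2 fold change 2.42 ± 0.13, SE, adjusted p = 2.51e-07, edgeR). In wild type it had 25.3 and 23.6 CPM after AvrRpm1 and 25.3 and 21.0 CPM after AvrRps4, against 3.13 and 2.76 CPM after flg22 (log2 fold change 3.01 ± 0.14, SE, adjusted p = 7.74e-08, edgeR). No Pst library came near a flg22 library. AT1G61300 (1.66 in camta3-D and 1.68 in wild type), AT1G61310 (1.57 and 1.59), SUMM2 (1.44 and 1.48), AT1G62630 (1.81 and 1.46) and AT5G43730 (1.199 and 0.99) rose in both genotypes on the log2 scale.

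ZAR1 fell to 272.6 ± 50.7 CPM after AvrRpm1 and 300.4 ± 33.4 CPM after AvrRps4 in camta3-D, against 1755 ± 98.0 CPM after flg22 (SD, n = 2 each). In wild type it fell to 384 ± 48.7 and 250.4 ± 62.4 CPM, against 1348 ± 44.7 CPM after flg22 (SD, n = 2 each). The log2 fold changes were -2.62 ± 0.16 and -2.12 ± 0.16 (SE, adjusted p = 4.16e-07 and 1.23e-06, edgeR). AT1G63350 (-2.50 in camta3-D and -2.51 in wild type), AT1G15890 (-2.43 and -2.63) and AT1G58410 (-2.60 and -3.30) fell as steeply on the log2 scale. AT1G58410 did so from few reads, with 2 to 22 counts in the Pst libraries and 47 to 77 counts in the flg22 libraries. RPP7 fell in both genotypes (-0.66 and -0.52), as did AT1G12290 (-0.57 and -0.72) and AT1G63360 (-0.43 and -0.31), whose wild-type calls were lost without wild-type flg22 replicate 2. The camta3-D call of AT1G12290 was lost without 5 of the 6 camta3-D libraries, each left out singly (adjusted p up to 0.165, edgeR).

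RPP13 rose in camta3-D (0.42 ± 0.12, SE, adjusted p = 0.0108, edgeR) and fell in wild type (-0.48 ± 0.11, SE, adjusted p = 0.00354, edgeR). The fall in wild type rests on the scaling. Unscaled counts there were 2034 and 2046 after flg22, 1967 and 1865 after AvrRpm1, and 1770 and 2078 after AvrRps4. The rise was not called without camta3-D flg22 replicate 2 (adjusted p = 0.118, edgeR), and the test of the difference between genotypes, given above, missed the threshold. RPP8 rose in wild type (0.42, adjusted p = 0.00391, edgeR, but 0.0792 without wild-type flg22 replicate 1) and had 0.17 in camta3-D without a call. AT3G14470 fell in wild type (-1.12, adjusted p = 0.000284, edgeR) and had 0.29 in camta3-D, also without a call.

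**Figure D4:**
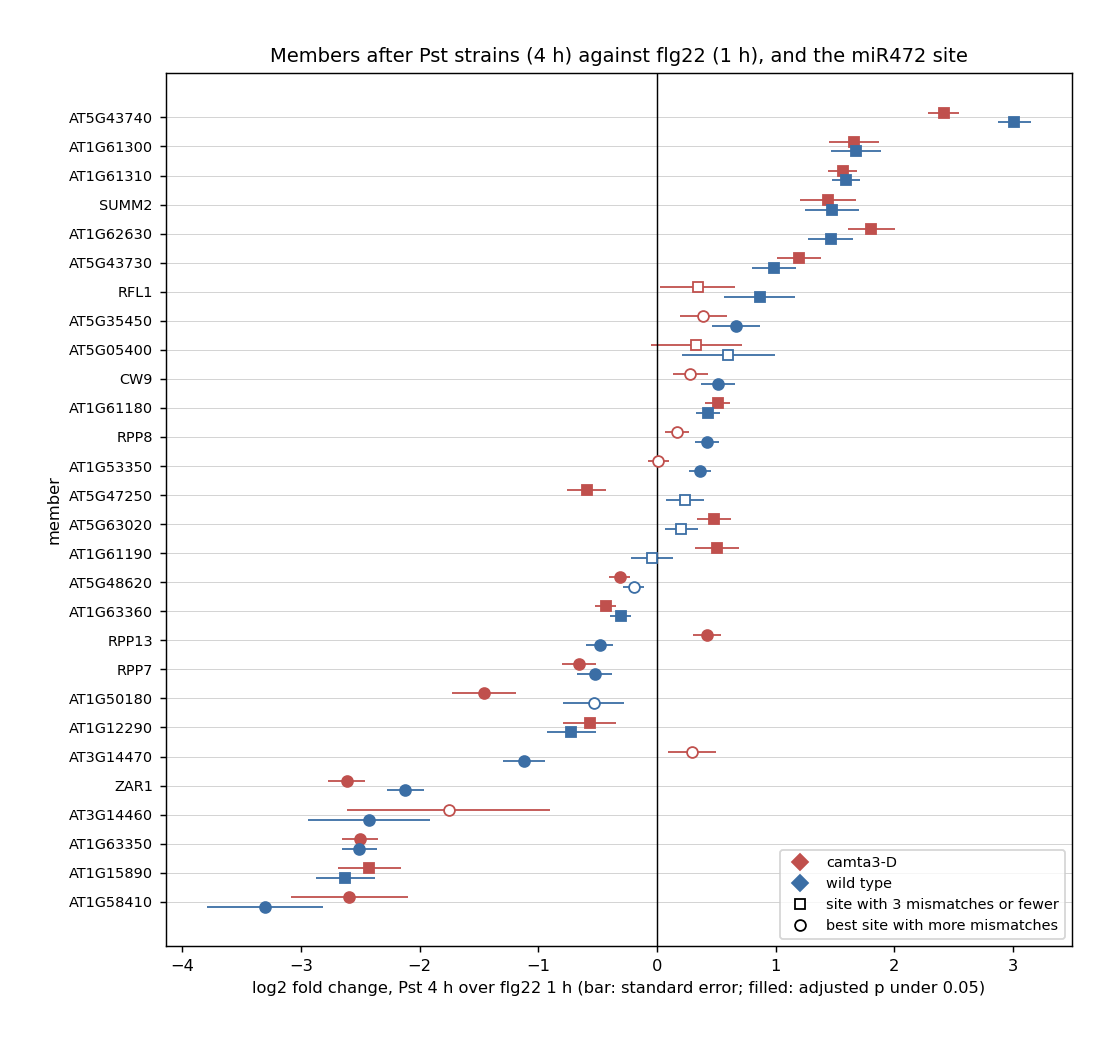
Log2 fold change of leaves 4 h after the Pst strains over leaves 1 h after flg22 (horizontal axis, bars are standard errors) for 28 of the members tested, camta3-D in red above wild type in blue. Squares mark members whose best miR472 site has 3 mismatches or fewer, and filled points passed an adjusted p under 0.05. The rows at the top, AT5G43740 down to RFL1, are all squares, and AT1G15890 near the bottom is a square as well.

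The direction was set beside the miR472 sites printed above. Of the 16 members tested with 3 mismatches or fewer, 10 rose and 4 fell in camta3-D (median log2 fold change 0.51), and 9 rose and 3 fell in wild type (median 0.70). Of the 13 with more mismatches, 1 rose and 6 fell in camta3-D (median -0.31), and 4 rose and 7 fell in wild type (median -0.52). The match was not the same as the direction, since AT1G15890, with 2 mismatches, had 1.80 to 2.99 CPM in the wild-type Pst libraries, against 12.4 and 17.3 CPM after flg22. This grouping was chosen after the values were seen, its members share descent and sequence, and it carries no test. The genotype difference did not sort in this way: in the average 6 of the 16 and 7 of the 13 were lower in camta3-D. The mature microRNA is not measured in libraries of polyadenylated RNA, and its locus had 0 counts in each library. That locus lies inside the gene model of AT1G12290 on the same strand, so the 0 counts are no measure of its transcript.

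Neighbouring members did not always share a direction. SUMM2 and AT1G12290 adjoin on chromosome 1, and at 4 h after Pst SUMM2 was higher in both genotypes and AT1G12290 lower. AT1G63350 and AT1G63360 lie side by side, and the log2 fold change was -2.50 in camta3-D and -2.51 in wild type for AT1G63350 and -0.43 and -0.31 for AT1G63360. AT5G43730 and AT5G43740, which also adjoin and share 90.08% of their coding bases, both rose.

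Some members have a near-identical copy, and their values are uncertain to that extent. Reads aligned to more than 1 place stood in a summary line and were not counted for a gene. RPP8 and AT5G48620 are 95.1% identical over their coding sequence, AT1G62630 and AT1G63360 are 93.5% identical, and the 4 genes AT1G61180, AT1G61190, AT1G61300 and AT1G61310 are 92.0 to 93.7% identical to their closest copy. In those 4, 21.1 to 28.7% of the exon stretches of 50 bases occur elsewhere in the genome. The share was 19.8% in RPP8, 15.2% in AT1G50180 and 14.6% in RPP7. RPP7 has its closest copy outside the members, AT1G59218, at 87.03% identity. SUMM2 and AT1G12290 overlap by 105 bases on 1 strand, AT5G43730 lies mostly within the noncoding gene AT5G43725, and RPP7 overlaps the pseudogene AT1G58561. ZAR1 overlaps AT3G50960 (59.1 counts per library on average) and an antisense RNA, both on the other strand. The antisense RNA has no row in the count table. The strand setting of the counting is not given in the sources used here.

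The 250 bases before the annotated start were searched for CGCG, the core of CAMTA sites, and for TTGAC, the core of sites of WRKY factors, on both strands. The promoter of RPP13 is shown because the gene was lower in camta3-D, and that of AT1G12290 because it holds the only CGCG among members tested. Capitals mark CGCG and TTGAC or its complement GTCAA, which do not overlap here.
RPP13 promoter, chr3:17133463-17133712, minus strand: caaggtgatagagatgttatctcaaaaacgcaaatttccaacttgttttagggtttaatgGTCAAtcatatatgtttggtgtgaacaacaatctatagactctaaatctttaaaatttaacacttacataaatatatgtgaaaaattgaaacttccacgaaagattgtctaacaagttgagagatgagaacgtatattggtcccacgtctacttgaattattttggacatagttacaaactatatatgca
AT1G12290 promoter, chr1:4182594-4182843, minus strand: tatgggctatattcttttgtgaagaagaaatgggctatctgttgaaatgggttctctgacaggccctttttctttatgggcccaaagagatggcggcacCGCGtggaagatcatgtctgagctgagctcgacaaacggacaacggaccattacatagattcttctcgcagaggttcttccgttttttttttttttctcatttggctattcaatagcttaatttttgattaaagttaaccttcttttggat

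CGCG occurred in 3 of the 38 promoters of members (7.89%) and in 10.1% of 27443 promoters of protein-coding genes of the same length. TTGAC occurred in 23 of 38 (60.5%), against 44.9% of all, and CGTG, another core reported for CAMTA sites, in 23 of 38 (60.5%), against 45.6% of all. In AT1G12290 the CGCG is followed by T and G and so overlaps a CGTG. The RPP13 promoter has 0 CGCG and 2 CGTG, both read as the complement CACG and left in lower case above. A match is a run of letters and not a measured site.

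The proteins that work with CNL receptors were read from a list of 26 genes, all of them tested. This list also holds RPM1 and RPS2, the receptors left out of the members. In the genotype comparisons 8 of the 26 were lower in camta3-D after flg22, 8 after AvrRpm1, 3 after AvrRps4 and 14 in the average. In each of them 0 were higher. Over all genes tested, 5.59, 3.41, 2.44 and 10.5% were lower in these comparisons, and the list was chosen with earlier results of these data known. RPS2 is counted after AvrRpm1 (-1.76 on the log2 scale, adjusted p = 0.00251, edgeR) and in the average (-0.98, adjusted p = 0.000856, edgeR). RPM1 was not called in these comparisons. MKK2, a kinase of the cascade that SUMM2 monitors, was lower after each treatment (-0.60, -0.75 and -0.71 on the log2 scale, adjusted p = 0.0164, 0.00883 and 0.015, edgeR). SGT1B, a co-chaperone of receptors, was lower after each as well (-0.50, -0.54 and -0.49, adjusted p = 0.0228, 0.0245 and 0.0379, edgeR; the first 2 added after the values were seen). The chaperone gene HSP90.1 had 3.30 and 4.45 CPM in camta3-D leaves after flg22, against 30.7 and 36.7 CPM in wild type. That was the lowest adjusted p of the list after flg22 (log2 fold change -3.12 ± 0.49, SE, adjusted p = 0.00771, edgeR), ahead of PBL2 (-0.85), which ZAR1 uses as a decoy.

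The pseudokinase gene ZED1, a partner of ZAR1, was lower in camta3-D after AvrRps4 (-0.46 on the log2 scale, adjusted p = 0.0487, edgeR), where ZAR1 was not called. After AvrRpm1 the helper receptor gene NRG1.2 had 7.45 and 5.89 CPM in camta3-D leaves and 29.6 and 20.9 CPM in wild type (-1.92 ± 0.36, SE, adjusted p = 0.0189, edgeR). At 4 h after Pst against 1 h after flg22, 7 of the 26 partners were higher and 14 lower in camta3-D, and 6 higher and 13 lower in wild type. Over all genes tested, 33.9% were higher and 32.5% lower in camta3-D, and 36.8% and 34.3% in wild type. Between the strains in camta3-D, 2 of the 26 listed genes were higher and 8 lower after AvrRpm1, against 10.5% and 12.4% of all genes tested.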

How the data were processed

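RNA-seq was made from infiltrated leaves in 12 samples. According to the paper's methods and the submitters' processing notes, the authors built libraries of polyadenylated RNA, checked reads with FastQC 0.11.2, aligned them to TAIR10 with TopHat2 2.0.10 and counted them per gene with HTSeq (version and strand setting not given in the sources used here). The deposited table holds raw counts, not normalized, of 32678 genes. Its 5 summary lines were left out of library sizes and tests: per library, 2.56 to 7.78% of counts were not unique, 0.428 to 0.617% ambiguous and 2.16 to 2.95% without a feature. Value columns of no listed sample numbered 0.

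Gene counts per library were 22769687 to 26303024, which limits the precision of low genes. Genes were kept by edgeR's filterByExpr at a minimum count of 10 (19167 tested), scaled by TMM (factors 0.797 to 1.17) and fitted over the 6 groups with the quasi-likelihood test (edgeR 4.0.16, limma 3.58.1, R 4.3.3). Adjusted p-values are Benjamini-Hochberg values over all genes tested, called under 0.05, and fitted fold changes use a prior count of 0.125. Contrasts were camta3-D against wild type in each treatment and averaged, AvrRpm1 against AvrRps4, the mean of both Pst strains against flg22, and the differences of these between genotypes. DESeq2 1.42.0, no low-count filter, a stricter threshold, fits of only the libraries compared, the replicate number as a block and each library left out were the alternatives. Sites, promoters and copies (BLAST+ 2.17.0) were read from RefSeq TAIR10.1.

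The members and gene lists were chosen with earlier results of these data known. Named are the receptors of established role (ZAR1, RPP8, RPP13, RPP7 and SUMM2), other members where called, the highest and lowest members, those not tested, those with the closest copies, and at most 4 called partner genes a comparison, with exceptions stated. A further member is counted in the totals and not reported here.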

Additional observations from a re-analysis of the deposited data

How the results depend on the processing

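No called value of a member changed direction under the alternatives run: of 71 calls, 43 held with every library left out and under every alternative but the stricter threshold, and 25 held under that as well. A stricter call (adjusted p below 0.01 with a log2 fold change beyond 1 either way) left 2 members called for camta3-D against wild type after flg22, 0 after AvrRpm1 and 0 in the average, 1 for AvrRpm1 against AvrRps4 in camta3-D, and 12 (camta3-D) and 11 (wild type) for Pst against flg22. Without the low-count filter, 3 were called between the strains in camta3-D and 2 for the genotype effect of Pst against flg22. With only the libraries compared, 0 were called after AvrRpm1 and 1 between the strains in camta3-D. DESeq2 called 9 after AvrRpm1, 2 after AvrRps4, 2 between the strains in wild type, and 2 (Pst against flg22) and 1 (AvrRpm1 against AvrRps4) for the differences of the genotype effect. The cause was not tested.

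With each library left out, the counts ran between 2 and 5 after flg22, 0 and 2 after AvrRpm1, 10 and 14 in the average, 1 and 3 between the strains in camta3-D, 16 and 22 for Pst against flg22 in camta3-D and 18 and 26 in wild type. A group then has 1 library, assumed to vary like the others. Few counts limit what can be seen in AT3G14460, AT5G05400 and AT1G58410.

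With the replicate number as a block, 2 members were called after AvrRpm1 and 2 between the strains in camta3-D, against 4 and 5 without it. After flg22, in the average, and for Pst against flg22 in camta3-D and wild type the block gave 4, 13, 20 and 23. Deviations of same-numbered libraries correlated between -0.18 and 0.0983 over 15 pairs of groups, so the numbers were taken as names only.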
